A study of Mus musculus with 13 samples.

Results

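The genes described here are 10 pericentral Wnt target genes and regulators of mouse liver: Glul, Oat, Slc1a2, Rhbg, Axin2, Lgr5, Tbx3, Znrf3, Rnf43 and Apc. They were taken by gene symbol from a table of RNA-seq counts that listed 53392 genes, and all 10 were among the 14317 genes with enough counts to be tested. The study fed female mice, 8 to 14 weeks old, a liquid diet with 28% of its calories from ethanol for 4 weeks and sequenced poly(A) RNA from the liver. It induced a ceramidase transgene, ASAH1, and set controls that differ in genotype beside controls that differ in diet.

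All 13 mice were homozygous for Albumin-Cre and for Rosa26-loxP-stop-loxP-rtTA, so that Cre, driven by the albumin promoter of hepatocytes, removes the stop before the doxycycline-dependent activator rtTA. The ASAH+ mice also carried TRE-ASAH1, which needs doxycycline (Dox) to be transcribed, and their ASAH- littermates did not. The ASAH- Etoh-Dox group (n = 4) and the ASAH+ Etoh-Dox group (n = 5) received ethanol with Dox at 200 mg/l, and the ASAH+ Etoh group (n = 4) received ethanol without Dox. The sample titles of the ASAH+ mice give the opposite Dox treatment to their other labels, which were used here. All groups thus share the ethanol diet and the activator, and no mouse without ethanol was analysed here. The libraries held 17819486 to 35358711 estimated counts, with a median of 24454043. Levels are given as CPM, the usual unit of counts scaled to a common library size, and per length as RPKM, which is CPM per kilobase of exon.

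In the liver, Wnt ligands and R-spondins released around the central vein keep beta-catenin active in the nearest hepatocytes. Without a Wnt signal, a destruction complex that includes Apc and Axin proteins marks beta-catenin for degradation. With it, beta-catenin reaches TCF/LEF factors on DNA and the pericentral genes are transcribed, among them the enzymes and transporters that take up ammonia and glutamate and several brakes on the pathway itself.

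The level of Asah1, the ceramidase that the transgene encodes, set the 5 ASAH+ Etoh-Dox libraries apart from the other 8 and did not tell the control groups from each other. It stood at 48.7, 40.0, 53.7 and 55.0 CPM in the ASAH- Etoh-Dox mice and at 46.8, 44.2, 46.8 and 48.3 CPM in the ASAH+ Etoh mice. In the ASAH+ Etoh-Dox mice it stood at 10314, 9668, 15134, 12725 and 15935 CPM. The log2 fold change was 8.01 (SE 0.20) against ASAH- Etoh-Dox and 8.10 (SE 0.21) against ASAH+ Etoh. The liver identity of the samples was plain from 6 hepatocyte markers, led by Alb, whose levels summed to between 81529 and 130911 CPM in every mouse.

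The comparison of ASAH+ Etoh-Dox with ASAH- Etoh-Dox asks what the transgene does under Dox, that with ASAH+ Etoh what Dox does in carriers of the transgene, and that of both controls how they differ from each other. No member passed edgeR's test in any of the 3 comparisons. By the quasi-likelihood test of edgeR, adjusted by Benjamini-Hochberg over all genes, at a threshold of 0.1, 0 of 10 members passed in ASAH+ Etoh-Dox against ASAH- Etoh-Dox, against a background of 2 of 14317 genes (0.014%). The count was also 0 of 10 in ASAH+ Etoh-Dox against ASAH+ Etoh (background 0.014%) and in ASAH- Etoh-Dox against ASAH+ Etoh (background 0.014%). The genes behind these background counts were named after their values were seen: Asah1 and the superoxide dismutase Sod1 in the first and second comparison, and the mitochondrial genes mt-Co2 and mt-Co3 in the last. The 3 comparisons share groups, so their values are not independent and are given side by side. In these whole-liver samples, fewer cells of a type and less RNA per cell cannot be told apart.

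With an unadjusted p under 0.05 by the same edgeR test, 1 of 10 members was higher in ASAH+ Etoh-Dox than in ASAH- Etoh-Dox (Apc), where 2.86% of all genes met this mark in either direction. Against ASAH+ Etoh, 3 of 10 members met it and were lower in ASAH+ Etoh-Dox (Znrf3, Apc and Oat), with 7.29% of all genes. In ASAH- Etoh-Dox against ASAH+ Etoh, 2 of 10 met it and were lower (Apc and Znrf3), with 9.19% of all genes. These are counts of 1 to 3 genes without correction for the number tested.

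Among the other tools, DESeq2 passed Apc in a single comparison. The limma-voom test passed 0 of 10 members in each comparison, where it passed 0.014%, 0.014% and 0.014% of all genes. The DESeq2 backgrounds are shares of the genes to which it gave an adjusted p, a number that differed between comparisons. DESeq2 on all 13 mice passed 0 of 10 in ASAH+ Etoh-Dox against ASAH- Etoh-Dox (background 0.0756%, 12 of 15863 genes). Against ASAH+ Etoh it also passed 0, with a background of 2.97% (95 of 3198 genes), but gave an adjusted p to only 5 of the 10 members. In ASAH- Etoh-Dox against ASAH+ Etoh it passed 1 of 10, Apc, with a background of 1.49% (150 of 10065 genes), and 1 of 10, again Apc, when these groups were fitted alone, with a background of 1.59% (168 of 10553 genes).

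The direction of the members is given as counts, since none passed edgeR's test. Against ASAH- Etoh-Dox 9 members were lower and 1 higher, with a median log2 fold change of -0.19, beside -0.00 over all genes tested. Against ASAH+ Etoh 9 were lower and 1 higher, with a median of -0.32, beside 0.01 over all genes. In ASAH- Etoh-Dox against ASAH+ Etoh 7 were lower and 3 higher, with a median of -0.14, beside 0.02 over all genes. With 1 mouse left out, the first median was -0.05, with 6 lower and 4 higher, without ASAH- Etoh-Dox replicate 2, -0.34 without ASAH- Etoh-Dox replicate 1 and -0.13 without ASAH+ Etoh-Dox replicate 4. The second ran from -0.40 without ASAH+ Etoh-Dox replicate 1, with 10 lower, to -0.26 without ASAH+ Etoh-Dox replicate 4. The last was -0.03, with 5 lower and 5 higher, without ASAH- Etoh-Dox replicate 1, -0.27 without ASAH- Etoh-Dox replicate 2 and -0.09 without ASAH- Etoh-Dox replicate 4. With the ratio of the clock genes Dbp and Arntl (described below) as a covariate, the 3 medians were -0.15, -0.24 and -0.12. There 8, 9 and 6 members were lower. The 10 genes are not independent of each other, and no test was made of these medians.

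**Figure D1:**
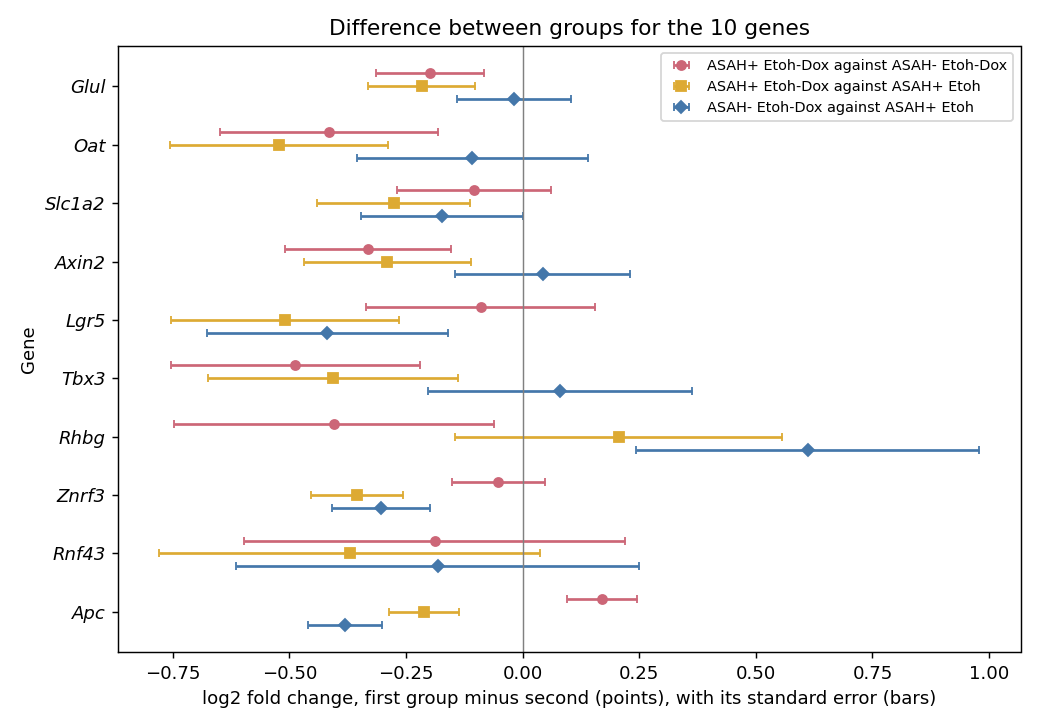
Log2 fold change (x axis, first group minus second) of each of the 10 genes (y axis) in the 3 comparisons, with bars for the standard error from edgeR's fit. Against ASAH+ Etoh, 9 of 10 points for ASAH+ Etoh-Dox lie below 0, and the bars of Apc and Znrf3 are the shortest of the 10 genes in each comparison.

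The separation of the groups was read in the same way. No member had groups that did not overlap in ASAH+ Etoh-Dox against ASAH- Etoh-Dox, where 0.887% of all genes did. In ASAH+ Etoh-Dox against ASAH+ Etoh, 3 of 10 did (Axin2, Tbx3 and Znrf3), with 2.58% of all genes. In ASAH- Etoh-Dox against ASAH+ Etoh, 2 of 10 did (Znrf3 and Apc), with 5.5% of all genes.

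Per length, the members spanned a wide range over the 13 mice. Oat had the highest level, at 503 ± 147 RPKM (SD, n = 13), and Glul followed at 373 ± 49.4 RPKM. Slc1a2 stood at 23.7 ± 4.43 RPKM. Next came a group of genes within a few RPKM of each other: Rhbg at 6.72 ± 2.94 RPKM, Tbx3 at 5.85 ± 2.00 RPKM and Rnf43 at 4.21 ± 1.61 RPKM. Apc at 2.87 ± 0.356 RPKM, Znrf3 at 2.20 ± 0.315 RPKM and Axin2 at 1.78 ± 0.421 RPKM were lower, and Lgr5 was the lowest at 0.833 ± 0.264 RPKM. Neighbours in this order differed beyond their SDs only between Glul and Slc1a2, between Slc1a2 and Rhbg and between Axin2 and Lgr5. The order in RPKM of Apc over Znrf3 nevertheless held in 13 of 13 mice, that of Oat over Glul in 11 and that of Rhbg over Tbx3 in 6.

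The members that handle nitrogen come first. Glul (ENSMUSG00000026473.15, chr1:153899944-153909723, plus strand, GRCm38) encodes glutamine synthetase, which joins ammonia to glutamate in the hepatocytes next to the central vein. It stood at 1059, 1306, 1452 and 1373 CPM in the ASAH- Etoh-Dox mice, at 1400, 1094, 1118, 1026 and 1014 CPM in the ASAH+ Etoh-Dox mice and at 1429, 1400, 1243 and 1183 CPM in the ASAH+ Etoh mice. All 3 groups overlapped: 4 of the 5 ASAH+ Etoh-Dox mice were below every ASAH+ Etoh mouse, and replicate 1 was among the high values. The log2 fold change of Glul was -0.20 (SE 0.12) against ASAH- Etoh-Dox and -0.22 (SE 0.12) against ASAH+ Etoh, and -0.02 (SE 0.12) between the control groups. The last was 0.05 without ASAH- Etoh-Dox replicate 1, 0.02 without ASAH+ Etoh replicate 1 and 0.01 without ASAH+ Etoh replicate 2. Glul had the smallest ratio of its highest to its lowest mouse among the 10 genes, 1.43 in CPM.

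Oat (ENSMUSG00000030934.9, chr7:132557478-132576398, minus strand) encodes ornithine aminotransferase, a mitochondrial enzyme that turns ornithine toward glutamate. It stood at 1301, 1444, 1544 and 834 CPM in the ASAH- Etoh-Dox mice, at 1089, 1235, 865, 830 and 783 CPM in the ASAH+ Etoh-Dox mice and at 1428, 778, 1514 and 1800.0 CPM in the ASAH+ Etoh mice. The single lowest mouse of the series was in the ASAH+ Etoh group, so the groups overlapped, although each ASAH+ Etoh-Dox mouse was below the median of both other groups. Its log2 fold change was -0.42 (SE 0.23) against ASAH- Etoh-Dox and -0.52 (SE 0.23) against ASAH+ Etoh, with an adjusted p of 0.665 for the latter by the quasi-likelihood test of edgeR, adjusted by Benjamini-Hochberg (0.263 to 0.932 over the alternatives). Between the control groups it was -0.11 (SE 0.25), and 0.05 without ASAH- Etoh-Dox replicate 4 or 0.03 without ASAH+ Etoh replicate 4.

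Slc1a2 (ENSMUSG00000005089.15, chr2:102658659-102790784, plus strand) encodes a high-affinity glutamate transporter of the plasma membrane. It stood at 250, 340, 363 and 275 CPM in the ASAH- Etoh-Dox mice, at 369, 350, 229, 238 and 241 CPM in the ASAH+ Etoh-Dox mice and at 365, 283, 368 and 368 CPM in the ASAH+ Etoh mice. The ASAH+ Etoh-Dox mice fell into a pair with high and 3 with low levels, so this group covered both the highest and the lowest mouse of the series. In log2 terms the difference was -0.10 (SE 0.17) against ASAH- Etoh-Dox, -0.28 (SE 0.16) against ASAH+ Etoh and -0.17 (SE 0.17) between the control groups. With 1 mouse left out, the first ran from -0.21 without ASAH+ Etoh-Dox replicate 1 to -0.01 without ASAH- Etoh-Dox replicate 3, and the last from -0.26 without ASAH- Etoh-Dox replicate 3 to -0.10 without ASAH- Etoh-Dox replicate 1.

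Rhbg (ENSMUSG00000104445.1, chr3:88242874-88254709, minus strand), an ammonia transporter of the Rhesus family, ranged from 7.37 to 25.6 CPM. Its level averaged 16.3 ± 7.47 CPM (SD, n = 4) in ASAH- Etoh-Dox, 12.3 ± 5.77 (SD, n = 5) in ASAH+ Etoh-Dox and 10.7 ± 2.61 (SD, n = 4) in ASAH+ Etoh, and all groups overlapped. The order differed from that of the other nitrogen genes, with a log2 fold change of 0.61 (SE 0.37) for ASAH- Etoh-Dox against ASAH+ Etoh. That of ASAH+ Etoh-Dox was -0.40 (SE 0.34) against ASAH- Etoh-Dox and 0.21 (SE 0.35) against ASAH+ Etoh, and with 1 mouse left out the latter ran from -0.14 without ASAH+ Etoh-Dox replicate 1, which had 22.2 CPM, to 0.35 without ASAH+ Etoh replicate 1. The value between the Dox groups ran from -0.74 without ASAH+ Etoh-Dox replicate 1 to -0.10 without ASAH- Etoh-Dox replicate 2, and that between the control groups from 0.31 without ASAH- Etoh-Dox replicate 2 to 0.78. Rhbg shares exons on the same strand with another annotated gene, Gm38392 (3.87 to 13.8 CPM), so the split of reads between both is uncertain. Exons of Glul overlap the microRNA gene Mir8114 on the same strand. Exons of Glul, Slc1a2, Axin2 and Tbx3 overlap genes on the opposite strand, so their levels may depend on the strand setting of the counting, which is not given in the sources used here.

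**Figure D2:**
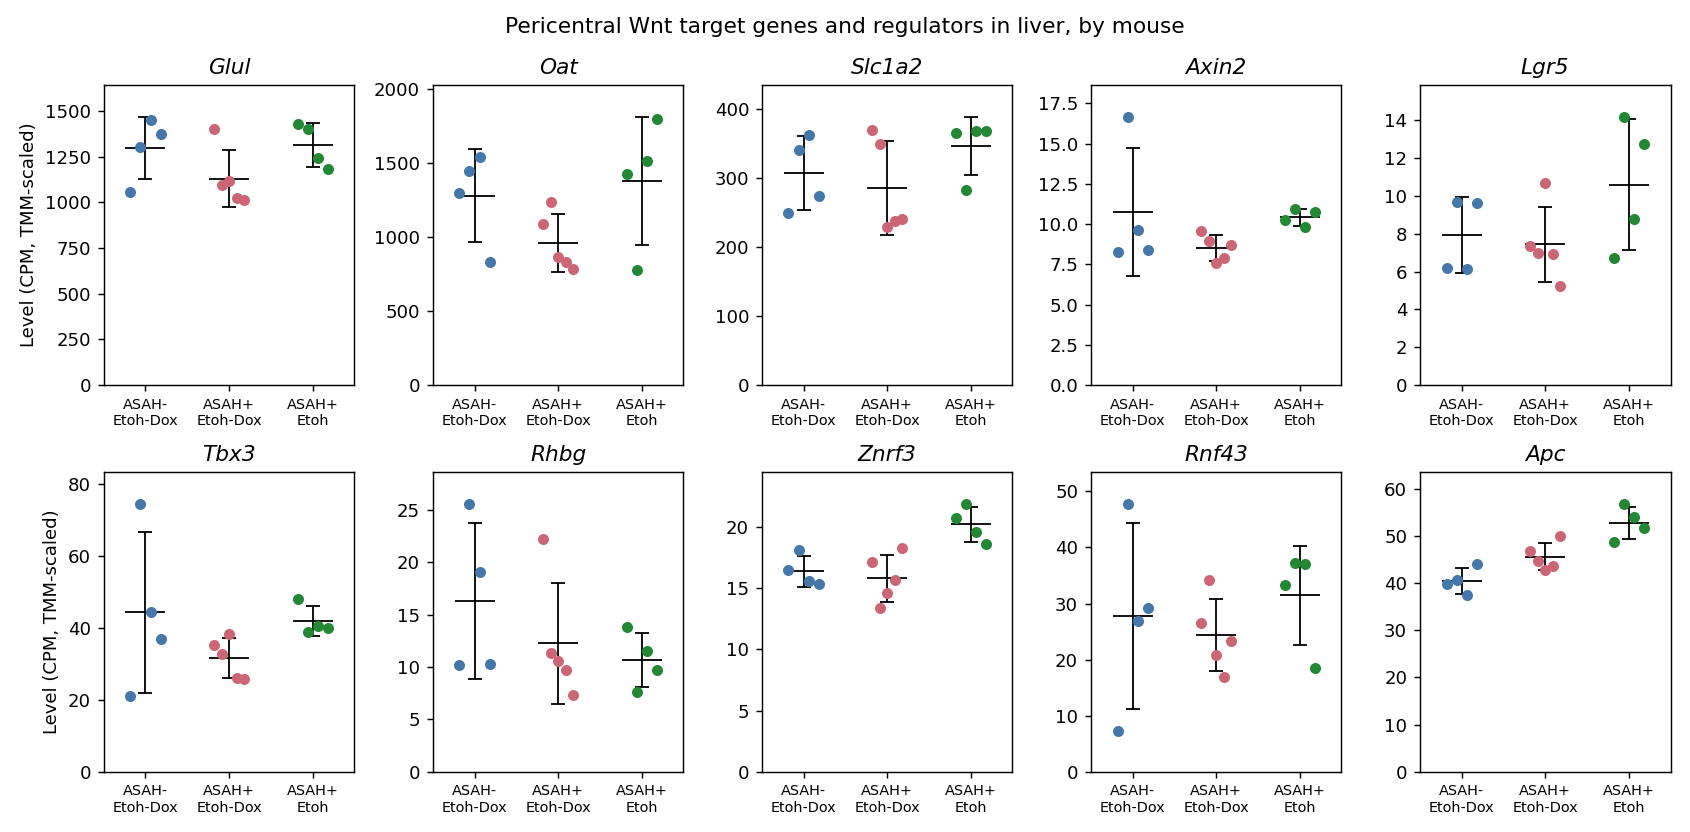
Level of each of the 10 genes (y axis, TMM-scaled CPM, from 0) in every mouse of the 3 groups (points), with the group mean and SD (black lines, n = 4, 5 and 4). Znrf3 and Apc show tight groups with ASAH+ Etoh highest, while Tbx3, Rhbg and Rnf43 have their largest SD in ASAH- Etoh-Dox.

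The bases before the start of 3 of these genes are shown because the levels of Oat and Slc1a2 went together across mice and Axin2 is a feedback target of the pathway. RefSeq promoter windows (GRCm38.p6) were matched for 5 of the 10 members, with 6 windows in all, for Glul, Slc1a2, Oat, Axin2 and Rnf43, the last with 2. There was no entry for Lgr5, Tbx3, Rhbg, Znrf3 and Apc. For each gene the longest stretch of its window outside annotated exons is printed, 5′ to 3′ on the strand of the gene. The Oat stretch is chr7:132576399-132576648 on the minus strand and the Axin2 stretch chr11:108920099-108920348 on the plus strand, both ending at the base before the annotated gene. The Slc1a2 stretch is chr2:102706188-102706355 on the plus strand, which lies inside the gene as annotated but outside its exons, before an internal RefSeq start. Capitals mark a match to a TCF/LEF core on the reverse strand, 206 bases before that start.
Oat: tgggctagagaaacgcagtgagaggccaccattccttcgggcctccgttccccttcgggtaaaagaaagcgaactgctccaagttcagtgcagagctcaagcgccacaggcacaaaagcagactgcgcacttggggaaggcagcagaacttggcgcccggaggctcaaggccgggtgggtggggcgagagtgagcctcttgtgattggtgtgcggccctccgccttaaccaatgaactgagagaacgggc
Slc1a2: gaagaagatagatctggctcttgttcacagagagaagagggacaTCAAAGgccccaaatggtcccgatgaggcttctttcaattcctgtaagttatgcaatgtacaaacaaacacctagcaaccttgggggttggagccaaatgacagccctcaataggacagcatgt
Axin2: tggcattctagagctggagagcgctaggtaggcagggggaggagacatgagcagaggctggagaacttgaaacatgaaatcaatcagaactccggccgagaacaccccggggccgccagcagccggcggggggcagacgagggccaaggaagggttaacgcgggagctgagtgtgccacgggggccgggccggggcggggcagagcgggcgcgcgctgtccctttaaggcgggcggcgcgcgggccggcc

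Each window of 250 bases was searched on both strands for 5 strings. The TCF/LEF core CTTTGA was in 1 of the 6 member windows, that of Slc1a2, which held it at both -206 and -77 bases, the latter beyond the printed letters, and in 13.8% of all 32851 windows. The other core, CTTTGT, was in 0 of 6 member windows and in 16.5% of all windows. Either core was in 1 of 6 and in 27.6% of all. The E-box CACGTG, bound by clock factors, was in 0 of 6 and 6.02% of all windows, and the D-box strings TTATGTAA and TTACGTAA, bound by factors such as Dbp, were in 0 of 6 each, with 0.819% and 0.113% of all windows. A match is a description of these letters only, and a missing one says only that the letters are not in the window.

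Among the feedback targets, Axin2 (ENSMUSG00000000142.15, chr11:108920349-108950783, plus strand) encodes a scaffold of the destruction complex that is itself switched on by Wnt signals. It stood at 8.26, 16.6, 9.63 and 8.40 CPM in the ASAH- Etoh-Dox mice, at 9.57, 8.97, 7.56, 7.86 and 8.68 CPM in the ASAH+ Etoh-Dox mice and at 10.2, 10.9, 9.79 and 10.8 CPM in the ASAH+ Etoh mice. Each ASAH+ Etoh-Dox mouse was below each ASAH+ Etoh mouse, by a small margin, and ASAH- Etoh-Dox replicate 2 stood far above all others. Its log2 fold change was -0.33 (SE 0.18) against ASAH- Etoh-Dox, -0.29 (SE 0.18) against ASAH+ Etoh and 0.04 (SE 0.19) between the control groups. Without ASAH- Etoh-Dox replicate 2 the first was -0.04 and the last -0.25, and the last was -0.00 without ASAH+ Etoh replicate 3.

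Tbx3 (ENSMUSG00000018604.18, chr5:119670669-119684724, plus strand), a T-box transcription factor and Wnt target of the pericentral zone, stood at 21.2, 74.6, 44.6 and 37.1 CPM in the ASAH- Etoh-Dox mice. It stood at 35.2, 32.8, 38.5, 25.99 and 25.8 CPM in the ASAH+ Etoh-Dox mice and at 48.2, 39.0, 40.6 and 40.1 CPM in the ASAH+ Etoh mice. Here too each ASAH+ Etoh-Dox mouse was below each ASAH+ Etoh mouse, with 38.5 next to 39.0 CPM, while the ASAH- Etoh-Dox group held both the lowest and the highest mouse. The fitted log2 fold change was -0.49 (SE 0.27) against ASAH- Etoh-Dox, -0.41 (SE 0.27) against ASAH+ Etoh and 0.08 (SE 0.28) between the control groups. Without ASAH- Etoh-Dox replicate 2 the first was -0.12 and the last -0.29.

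Lgr5 (ENSMUSG00000020140.15, chr10:115450311-115587780, minus strand), a receptor for R-spondins, ranged from 5.25 to 14.2 CPM, from 121 to 348 counts. Its level averaged 7.91 ± 2.01 CPM (SD, n = 4) in ASAH- Etoh-Dox, 7.43 ± 2.00 (SD, n = 5) in ASAH+ Etoh-Dox and 10.6 ± 3.44 (SD, n = 4) in ASAH+ Etoh. The groups overlapped, and the log2 fold changes against ASAH+ Etoh were -0.51 (SE 0.24) for ASAH+ Etoh-Dox and -0.42 (SE 0.26) for ASAH- Etoh-Dox. With 1 mouse left out they ran from -0.69 to -0.33 and from -0.59 to -0.24, both nearest to 0 without ASAH+ Etoh replicate 2. Between the Dox groups it was -0.09 (SE 0.24), with a change of sign when ASAH- Etoh-Dox replicate 2 (0.02), ASAH- Etoh-Dox replicate 4 (0.02) or ASAH+ Etoh-Dox replicate 5 (0.02) was left out.

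Znrf3 and Rnf43 encode transmembrane ubiquitin ligases that remove Frizzled receptors from the cell surface, and R-spondins with Lgr receptors hold them back. Znrf3 (ENSMUSG00000041961.14, chr11:5276324-5444847, minus strand) stood at 16.5, 18.1, 15.6 and 15.3 CPM in the ASAH- Etoh-Dox mice, at 17.1, 13.4, 14.6, 15.7 and 18.3 CPM in the ASAH+ Etoh-Dox mice and at 20.7, 21.9, 19.6 and 18.6 CPM in the ASAH+ Etoh mice. The 4 mice without Dox were above all 9 mice with Dox, and the Dox groups covered each other. In log2 terms the difference was -0.36 (SE 0.10) for ASAH+ Etoh-Dox against ASAH+ Etoh, with an adjusted p of 0.505 by the quasi-likelihood test of edgeR, adjusted by Benjamini-Hochberg (0.190 to 0.862 over the alternatives that gave one). DESeq2 on all 13 mice gave Znrf3 a log2 fold change of -0.37 (SE 0.11) and an unadjusted p of 0.000997 in this comparison, but no adjusted p. It was -0.30 (SE 0.10) for ASAH- Etoh-Dox against ASAH+ Etoh, with an adjusted p of 0.421 by the same edgeR test and adjustment (0.164 to 0.779 over the alternatives), and -0.05 (SE 0.10) between the Dox groups. The latter was 0.00 without ASAH- Etoh-Dox replicate 2 and 0.00 without ASAH+ Etoh-Dox replicate 2.

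Rnf43 (ENSMUSG00000034177.15, chr11:87662722-87735539, plus strand) stood at 7.21, 47.8, 26.8 and 29.1 CPM in the ASAH- Etoh-Dox mice, at 26.5, 34.1, 20.9, 17.0 and 23.3 CPM in the ASAH+ Etoh-Dox mice and at 33.2, 37.2, 37.1 and 18.4 CPM in the ASAH+ Etoh mice. It had the widest spread of the 10 genes, with a ratio of highest to lowest mouse of 6.62, and both of these mice were in the ASAH- Etoh-Dox group. Its biological coefficient of variation, edgeR's estimate of the spread between mice, was 0.420, above that of 94.0% of genes, beside 0.115 for Znrf3 and a median of 0.167 over all genes tested. The log2 fold change of Rnf43 was -0.19 (SE 0.41) against ASAH- Etoh-Dox, -0.37 (SE 0.41) against ASAH+ Etoh and -0.18 (SE 0.43) between the control groups. The first was 0.21 without ASAH- Etoh-Dox replicate 2 and the last 0.12 without ASAH- Etoh-Dox replicate 1. Against ASAH+ Etoh it ran from -0.56 without ASAH+ Etoh replicate 4 to -0.13 with the clock ratio of Dbp to Arntl in the fit.

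Apc (ENSMUSG00000005871.14, chr18:34220924-34322552, plus strand) encodes the large scaffold of the destruction complex and so restrains beta-catenin. It stood at 39.9, 40.5, 37.4 and 44.1 CPM in the ASAH- Etoh-Dox mice, at 46.9, 44.6, 42.8, 43.7 and 49.9 CPM in the ASAH+ Etoh-Dox mice and at 48.6, 56.8, 53.9 and 51.6 CPM in the ASAH+ Etoh mice. The group means were ordered ASAH- Etoh-Dox, ASAH+ Etoh-Dox and ASAH+ Etoh from low to high, at 40.5 ± 2.77 (SD, n = 4), 45.6 ± 2.85 (SD, n = 5) and 52.7 ± 3.45 CPM (SD, n = 4). Only the outer groups did not overlap.

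The spread of Apc between mice was small, with a biological coefficient of variation of 0.102, above that of only 4.56% of genes. Its log2 fold change was -0.38 (SE 0.08) for ASAH- Etoh-Dox against ASAH+ Etoh, with an adjusted p of 0.389 by the quasi-likelihood test of edgeR, adjusted by Benjamini-Hochberg (0.00472 to 0.707 over the alternatives, the lowest from DESeq2). For ASAH+ Etoh-Dox it was -0.21 (SE 0.07) against ASAH+ Etoh, with an adjusted p of 0.554 by edgeR with the same adjustment (0.144 to 0.893 over the alternatives). Against ASAH- Etoh-Dox it was 0.17 (SE 0.08), with an adjusted p of 1.00 by edgeR with the same adjustment (0.900 to 1.00 over the alternatives). In DESeq2 on all 13 mice Apc was lower in ASAH- Etoh-Dox than in ASAH+ Etoh by a log2 fold change of -0.40 (SE 0.09), in 4 of 4 mice, with a Benjamini-Hochberg adjusted p of 0.00472, and of -0.40 (SE 0.10) with an adjusted p of 0.0119 when these groups were fitted alone. A p that misses the threshold does not show that values did not differ.

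The rest of the pathway was read from lists of other genes. Of 12 Wnt ligands, R-spondins and secretion factors 9 were tested, of 15 receptors and co-receptors 11, of 21 intracellular components 20, and of 18 inhibitors and other targets 10. By the quasi-likelihood test of edgeR, adjusted by Benjamini-Hochberg 0 of these passed in any comparison. With an unadjusted p under 0.05 the ligands had 0 in each comparison. The receptors had 1 higher in ASAH+ Etoh-Dox against ASAH- Etoh-Dox and 2 lower in ASAH- Etoh-Dox against ASAH+ Etoh. The intracellular list had 1 higher in ASAH+ Etoh-Dox against ASAH+ Etoh, and 2 higher and 1 lower in ASAH- Etoh-Dox against ASAH+ Etoh. The inhibitors had 1 lower in ASAH+ Etoh-Dox against ASAH- Etoh-Dox. Of all genes tested, 2.86%, 7.29% and 9.19% met this mark in the 3 comparisons, in either direction.

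The median log2 fold changes of these lists were small. In ASAH+ Etoh-Dox against ASAH- Etoh-Dox, against ASAH+ Etoh, and between the control groups in turn, they were -0.06, -0.15 and -0.06 for the ligands, and -0.02, -0.02 and -0.15 for the receptors. They were 0.05, 0.01 and -0.04 for the intracellular list and -0.14, -0.15 and 0.09 for the inhibitors and other targets. The medians of all genes tested were -0.00, 0.01 and 0.02.

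The gene with the smallest p of each list is named here, and none passed edgeR's test. Between the Dox groups these were Wls, which carries Wnt proteins to the membrane (log2 fold change -0.33, SE 0.16), the R-spondin receptor Lgr4 (0.17, SE 0.08), the signal relay Dvl2 (0.40, SE 0.23) and Notum, an enzyme that inactivates Wnt proteins (-0.35, SE 0.14). In ASAH+ Etoh-Dox against ASAH+ Etoh they were Wnt2, a ligand of the central vein endothelium (-0.53, SE 0.29), the co-receptor Lrp6 (-0.19, SE 0.11), Pygo1, a nuclear partner of beta-catenin (1.10, SE 0.40), and again Notum (-0.29, SE 0.14). In ASAH- Etoh-Dox against ASAH+ Etoh they were Wnt5b (-0.46, SE 0.24), Lrp6 (-0.33, SE 0.12), the kinase Gsk3b of the destruction complex (-0.30, SE 0.09) and the secreted inhibitor Sfrp1 (0.41, SE 0.34). DESeq2 on all 13 mice passed Gsk3b in this last comparison, with a log2 fold change of -0.31 (SE 0.09), and did not pass it when these groups were fitted alone. With 1 mouse left out, Lgr4 ran from 0.11 to 0.23 between the Dox groups. Notum then ran from -0.37 to -0.13 in ASAH+ Etoh-Dox against ASAH+ Etoh, and Sfrp1 from 0.22 to 0.55 between the control groups. Pygo1 had a low level, 1.90 ± 0.845 CPM (SD, n = 5) in ASAH+ Etoh-Dox and 0.882 ± 0.366 (SD, n = 4) in ASAH+ Etoh. Sfrp1 was lower still, at 0.607 ± 0.219 CPM (SD, n = 4) in ASAH- Etoh-Dox and 0.452 ± 0.0727 (SD, n = 4) in ASAH+ Etoh.

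The gene of each list with the highest level per length is given next. In RPKM in ASAH- Etoh-Dox, ASAH+ Etoh-Dox and ASAH+ Etoh, Rspo3, the R-spondin of the central vein, had levels of 2.10 ± 0.153, 1.84 ± 0.227 and 1.87 ± 0.0692 (SD, n = 4, 5 and 4). Lgr4 had levels of 9.97 ± 1.09, 11.2 ± 0.374 and 11.5 ± 0.543 RPKM. Ctnnb1, which encodes beta-catenin, had levels of 36.6 ± 3.50, 37.9 ± 2.07 and 40.8 ± 2.03 RPKM. Cldn2, a tight junction gene, had levels of 25.7 ± 1.35, 22.7 ± 6.11 and 23.8 ± 4.01 RPKM. None of these 4 genes passed the edgeR test.

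Other zonated hepatocyte genes were counted beside the members, 20 of the pericentral and 20 of the periportal zone, all tested. By the quasi-likelihood test of edgeR, adjusted by Benjamini-Hochberg 0 passed in any comparison. With an unadjusted p under 0.05, the pericentral list had 2, 5 and 4 genes lower and 0 higher in ASAH+ Etoh-Dox against ASAH- Etoh-Dox, against ASAH+ Etoh, and between the control groups. The periportal list had 1, 7 and 3 lower and 1, 0 and 1 higher. Of all 14317 genes, 225, 464 and 589 were lower at this mark and 184, 580 and 727 higher, or 2.86%, 7.29% and 9.19% in either direction. The median log2 fold changes were -0.08, -0.13 and -0.06 for the pericentral list and -0.09, -0.20 and -0.11 for the periportal list. Both zones thus had lower medians than all genes tested.

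Among single genes of these lists, Cyp2c37, a pericentral cytochrome, was at 999 ± 177 CPM (SD, n = 5) in ASAH+ Etoh-Dox and 1577 ± 332 (SD, n = 4) in ASAH+ Etoh, a log2 fold change of -0.66 (SE 0.15), with groups that did not overlap. DESeq2 on all 13 mice passed it, together with Cyp2c29 (-0.94, SE 0.28) and Cps1 (-0.71, SE 0.18), which were named after their values were seen, and passed these genes when the groups were fitted alone as well. In the pericentral list, the gene with the smallest p was Lect2 between the Dox groups (-0.30, SE 0.09) and Cyp3a11 between the control groups (-0.53, SE 0.17). In the periportal list it was Ctsc between the control groups (-0.37, SE 0.09), which DESeq2 passed on all 13 mice and on these groups alone. The highest genes per length were Cyp2e1, at 4059 ± 1013, 3285 ± 340.0 and 3852 ± 864 RPKM in the order of groups above, and Alb, at 41617 ± 3852, 36477 ± 5479 and 38149 ± 4649 RPKM.

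Endothelial cells of the central vein and sinusoids are the known source of Wnt ligands in liver, and none of their markers passed edgeR's test in any comparison. All 6 of 6 endothelial markers were lower in ASAH+ Etoh-Dox than in ASAH- Etoh-Dox, with a median log2 fold change of -0.37, 4 with an unadjusted p under 0.05 and 0 past the edgeR test. Against ASAH+ Etoh 5 of 6 were lower, with a median of -0.35 and 3 with an unadjusted p under 0.05, and between the control groups the median was 0.06. Their levels summed to 182, 166, 286 and 198 CPM in ASAH- Etoh-Dox, to 164, 163, 134, 197 and 165 CPM in ASAH+ Etoh-Dox and to 222, 170, 207 and 208 CPM in ASAH+ Etoh. The sums overlapped, Eng was the most abundant of the 6 and no marker was at 0 in every mouse. Beside these 6 markers, 2.86% of all genes had an unadjusted p under 0.05 between the Dox groups and 7.29% against ASAH+ Etoh. The part of the endothelial markers in the results for the members was not tested.

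No marker of red cells, macrophages or lymphocytes passed edgeR's test in any comparison. An unadjusted p under 0.05 was met by 2.86%, 7.29% and 9.19% of all genes in the 3 comparisons, in either direction. The 4 red cell markers, led by Hbb-bs, had a median log2 fold change of 1.74 in ASAH+ Etoh-Dox and 2.10 in ASAH- Etoh-Dox against ASAH+ Etoh, 4 of 4 with an unadjusted p under 0.05 in both. They summed to 156, 497, 1143 and 151 CPM in ASAH- Etoh-Dox, to 461, 173, 619, 227 and 416 CPM in ASAH+ Etoh-Dox and to 97.8, 111, 120 and 137 CPM in ASAH+ Etoh. Every mouse with Dox was thus above every mouse without it, and between the Dox groups the median was -0.34. The 6 Kupffer cell and macrophage markers, led by Cd5l, had medians of -0.30, 0.37 and 0.60 in the 3 comparisons, with 0, 0 and 5 at an unadjusted p under 0.05. They summed to 372, 368, 763 and 470 CPM in ASAH- Etoh-Dox, to 508, 527, 273, 444 and 273 CPM in ASAH+ Etoh-Dox and to 355, 286, 313 and 333 CPM in ASAH+ Etoh, so that each ASAH- Etoh-Dox mouse was above each ASAH+ Etoh mouse, while ASAH+ Etoh-Dox held both higher and lower mice than ASAH+ Etoh.

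The 6 lymphocyte markers, led by Ptprc, had medians of 0.08, 0.77 and 0.68, with 0, 2 and 3 higher at an unadjusted p under 0.05. They summed to 10.96, 14.4, 20.7 and 18.8 CPM, to 16.0, 22.2, 10.6, 16.6 and 11.5 CPM and to 10.7, 12.1, 10.2 and 9.83 CPM in the same order of groups, with overlap. Ptprc, which other leukocytes also express, had a mean of 11.6 CPM over all mice, so these sums are not specific to lymphocytes. The 6 stellate and fibroblast markers, led by Dcn, had medians of -0.20, 0.05 and 0.27. At an unadjusted p under 0.05, 1 of them was lower between the Dox groups, where all 6 were lower, 0 differed against ASAH+ Etoh and 2 were higher between the control groups. They summed to 241, 238, 285 and 258 CPM in ASAH- Etoh-Dox, to 222, 236, 219, 222 and 184 CPM in ASAH+ Etoh-Dox and to 246, 199, 203 and 252 CPM in ASAH+ Etoh, so that each ASAH- Etoh-Dox mouse was above each ASAH+ Etoh-Dox mouse. The 4 tested of 5 cholangiocyte markers, led by Spp1, had medians of -0.39, -0.11 and 0.30 and summed to 30.1 to 75.6 CPM. The 6 hepatocyte markers had medians of -0.24, -0.02 and 0.10. Between the Dox groups 5 of these 6 were lower, 1 of them with an unadjusted p under 0.05. Against ASAH+ Etoh 3 were lower and 3 higher, with 0 at this mark. Between the control groups 5 were higher, 1 of them at this mark, and 1 was lower. Of all these markers 0 passed edgeR's test and none was at 0 in every mouse, and their part in the results for the members was not tested. In the 3 comparisons 2.86%, 7.29% and 9.19% of all genes met the unadjusted mark, in either direction.

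The levels of the members were compared in pairs across the 13 mice, with no like comparison of other genes. Of 45 pairs, 39 had a positive Pearson's r of log2 CPM and 6 a negative one, with a median of 0.38. After Benjamini-Hochberg adjustment over the 45 pairs, 5 pairs passed the threshold of 0.1 by a two-sided permutation test on r, all positive, and 0 by the same test on Spearman's rho. Taken as deviations from the group means, with permutation within groups, 0 pairs passed on r and 2 on rho, Oat with Slc1a2 and Tbx3 with Rhbg.

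Of the 5 pairs, Axin2 and Tbx3 had r = 0.80 (permutation p = 0.00201, adjusted 0.0619) and rho = 0.74 (permutation p = 0.00565, adjusted 0.120), and r was 0.76 without the 2 mice farthest from the median of Axin2. For Oat and Slc1a2, r was 0.77 (permutation p = 0.00409, adjusted 0.0619), rho 0.64 (permutation p = 0.0211, adjusted 0.135) and r 0.75 without the 2 mice farthest from the median of Oat. These values were high in different genes of the list, a pair of pathway targets and a pair of glutamate genes. For Tbx3 and Rnf43, r was 0.76 (permutation p = 0.00413, adjusted 0.0619) and rho 0.62 (permutation p = 0.0262, adjusted 0.148). Without ASAH- Etoh-Dox replicates 1 and 2 it was 0.46, so this relation rests on those mice, the lowest and the highest for both genes.

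The other pairs were Glul with Tbx3 (r = 0.66, permutation p = 0.0101, adjusted 0.0973; rho = 0.71, permutation p = 0.009, adjusted 0.120) and Znrf3 with Apc (r = 0.68, permutation p = 0.0108, adjusted 0.0973; rho = 0.69, permutation p = 0.0107, adjusted 0.120). Without the 2 mice farthest from the median of the first gene, Glul and Znrf3, r was 0.52 and 0.66. For Glul with Tbx3 this left out ASAH+ Etoh-Dox replicates 4 and 5. It kept ASAH- Etoh-Dox replicates 1 and 2, the lowest and the highest mouse for Tbx3. As deviations from the group means, r was 0.74 for both Axin2 with Tbx3 and Oat with Slc1a2, 0.81 for Tbx3 with Rnf43, 0.56 for Glul with Tbx3 and 0.43 for Znrf3 with Apc. The adjusted permutation p of these within-group values was 0.383, 0.128, 0.304, 0.332 and 0.438. By rho within groups, Oat with Slc1a2 had 0.79 (permutation p = 0.00431, adjusted 0.0970) and Tbx3 with Rhbg 0.84 (permutation p = 0.00405, adjusted 0.0970).

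The count of 5 pairs moved with single mice. It was 0 without ASAH- Etoh-Dox replicate 3, ASAH+ Etoh-Dox replicate 4, ASAH+ Etoh replicate 1 or ASAH+ Etoh replicate 3, and 1 without ASAH+ Etoh-Dox replicate 3. It was 2 without ASAH- Etoh-Dox replicate 1, ASAH+ Etoh-Dox replicate 5 or ASAH+ Etoh replicate 4, 3 without ASAH- Etoh-Dox replicate 4 and 9 without ASAH+ Etoh replicate 2.

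**Figure D3:**
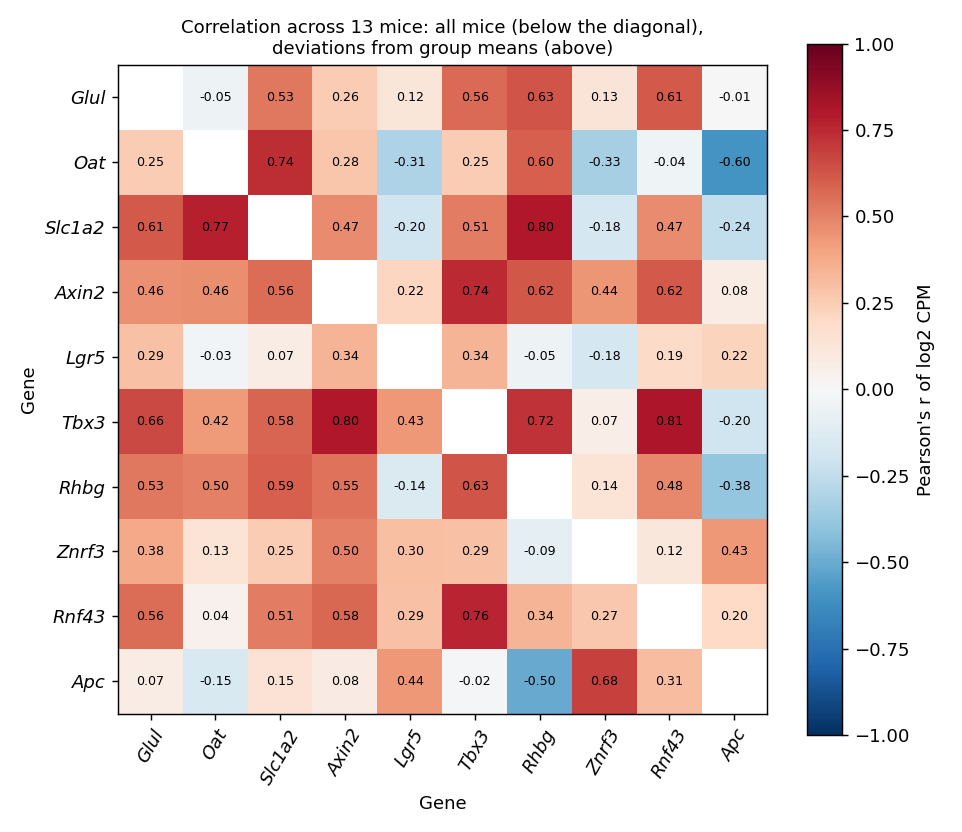
Pearson's r of log2 CPM for the 45 pairs of genes over 13 mice, over all mice below the diagonal and as deviations from group means above it (color scale from -1 to 1). Tbx3 has r = 0.80 with Axin2 and 0.76 with Rnf43, and Oat has 0.77 with Slc1a2, and Znrf3 has 0.68 with Apc.

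Over 11111 genes of sufficient level, those whose log2 CPM went most like Glul in the 13 mice were Slc22a5, a carnitine transporter (r = 0.87, rho = 0.79), Atp6v1d, a subunit of the proton pump of acid vesicles (r = 0.86, rho = 0.90), and Clstn3 (r = 0.85, rho = 0.80). For Axin2 they were Mpv17l2 (r = 0.84, rho = 0.79), the uracil glycosylase Ung (r = 0.81, rho = 0.89) and Tbx3 (r = 0.80, rho = 0.74). Without the 2 mice farthest from the median, r was 0.87, 0.80 and 0.81 for Glul and 0.68, 0.82 and 0.76 for Axin2. These genes were selected as the highest of many, so the values are a description.

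The livers also differed in the phase of the circadian clock, as read from Dbp, a clock output that peaks when the clock gene Arntl is low. The log2 ratio of Dbp to Arntl was -0.96, 6.54, 1.81 and 6.17 in ASAH- Etoh-Dox, 6.72, 6.85, -1.65, 0.15 and 2.71 in ASAH+ Etoh-Dox and 4.46, 6.10, 5.07 and 1.60 in ASAH+ Etoh. The ratio varied within each group, but the groups were not matched for it. The lowest ratio was 1.60 in ASAH+ Etoh, beside -0.96 in ASAH- Etoh-Dox and -1.65 in ASAH+ Etoh-Dox. The level of Rnf43 was seen to go with this ratio, and a slope on the ratio was then tested for every gene beside the group means, a test chosen after these values were seen.

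Rnf43 had a slope of 0.16 (SE 0.04) in log2 level per log2 unit of the ratio, with an adjusted p of 0.0491 by the quasi-likelihood test of edgeR, adjusted by Benjamini-Hochberg. It was the only 1 of 10 members to pass, and since 9.6% of all genes passed, this share is not a result about the members. The other 9 slopes lay between 0.00 and 0.08. The count of members that passed was 0 without ASAH+ Etoh-Dox replicate 4, 0 without ASAH+ Etoh replicate 4 and 0 with no filter on low counts, where the slope of Rnf43 was 0.16, 0.15 and 0.16, and 2 without ASAH- Etoh-Dox replicate 4, with Axin2 added. With the ratio as a covariate, 0 of 10 members passed the edgeR test in each of the 3 comparisons.

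**Figure D4:**
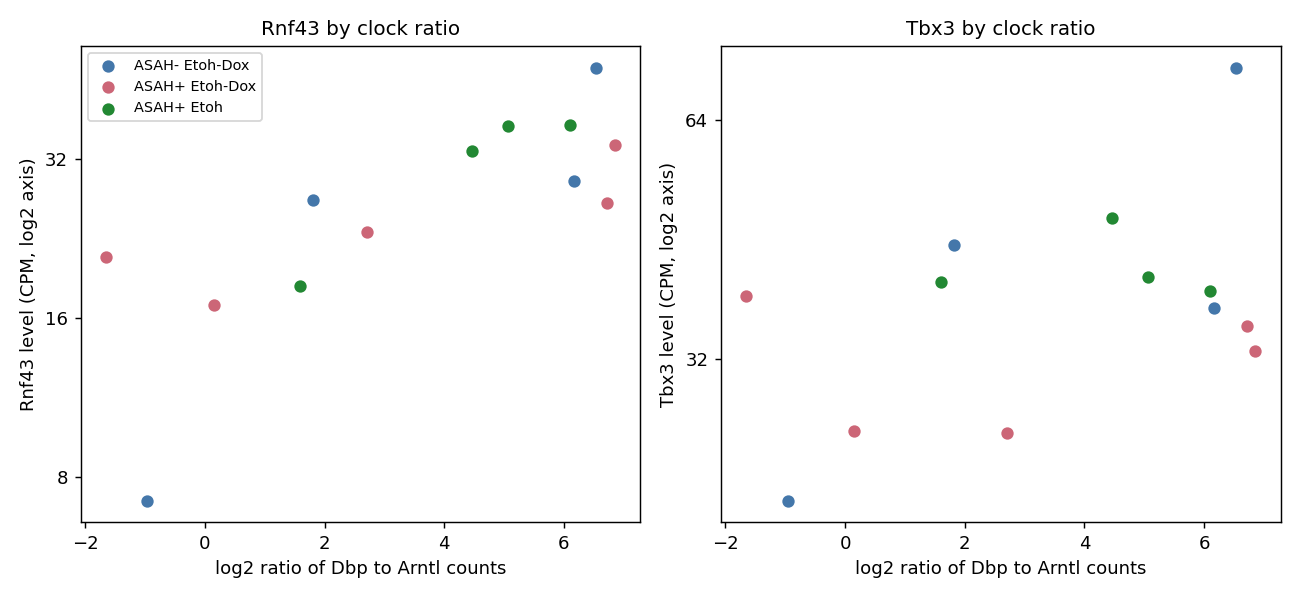
Level of Rnf43 and of Tbx3 (y axes, CPM, log2 scale) against the log2 ratio of Dbp to Arntl counts (x axis) in the 13 mice (points, colored by group). For Rnf43 the lowest mouse, at 7.21 CPM, has a ratio of -0.96 and the highest, at 47.8 CPM, one of 6.54.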

How the data were processed

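Poly(A) RNA of 13 mouse livers was sequenced as 100-base single-end reads from stranded libraries. The authors quantified the reads with Salmon on GENCODE M19 (GRCm38.p6) and summed them per gene with tximport, and the table they deposited holds estimated counts (expected counts), not scaled for library size and all whole numbers. The Salmon version and its strand setting are not given in the sources used here. Symbols, exon lengths and positions were taken from GENCODE M21, which held 53355 of the 53392 gene IDs. Library totals were 17819486 to 35358711. Genes with low counts were removed with edgeR's filterByExpr, which left 14317. Counts were scaled by TMM, and each comparison was tested in 1 fit of all 13 mice with edgeR 4.0.16 (robust quasi-likelihood test, R 4.3.3), two-sided, with Benjamini-Hochberg adjustment and a threshold of 0.1. Alternatives used limma-voom 3.58.1, DESeq2 1.42.0, other filters, scalings and designs, and each mouse left out. Fold changes and correlations used log2 values, the latter with a prior count of 2 and 100000 permutations, whose smallest p is 1e-05. The test was also tested on simulated data. The lists were the Wnt ligands, receptors, intracellular components and inhibitors, other pericentral and periportal genes, and markers of hepatocytes, endothelial cells, Kupffer cells, stellate cells, cholangiocytes, lymphocytes and red cells. Named genes were all members, the gene of each wider list with the smallest p and that with the highest level per length, the 3 genes most like Glul and the 3 most like Axin2 with mean log2 CPM above 1, Asah1, Dbp and Arntl. A gene that this rule also names is not reported here. Members and lists were chosen with earlier results of these data known.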

Additional observations from a re-analysis of the deposited data

Results flagged for a closer look

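In each group the highest and the lowest mouse were compared with the nearest other mouse of the group for the 10 genes, 30 groups in all, and chance marks about 1 in 20 groups. In 4 of them a mouse stood far from the rest of its group. Glul was highest in ASAH+ Etoh-Dox replicate 1, at 1400.4 CPM, and Rhbg was highest in the same mouse, at 22.2 CPM. Slc1a2 was lowest in ASAH+ Etoh replicate 2, at 283 CPM. Axin2 was highest in ASAH- Etoh-Dox replicate 2, at 16.6 CPM.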

How the results depend on the processing

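Of 300 member values under alternatives other than a mouse left out, 7 changed sign and 2 newly passed the threshold. Of 390 with a mouse left out, 16 changed sign and 0 newly passed. With limma-voom the log2 fold change of Rnf43 between the Dox groups was 0.037, and between the control groups that of Axin2 was -0.016 and that of Tbx3 -0.052. With the clock ratio (Dbp to Arntl) in the fit, Rnf43 between the Dox groups was 0.023 and Glul between the control groups 0.0086. With the replicate block, Lgr5 between the Dox groups was 0.056 and Tbx3 between the control groups -0.0012. The labels do not say whether the replicate numbers pair mice. Over 12 pairs with the same number, r of the deviations from group means was -0.26 to 0.19. Between mice of different numbers it was -0.29 to 0.31, and these values cannot settle whether mice were paired. DESeq2 passed 1 member between the control groups on all 13 mice and 1 on the groups alone. Among the wider lists it passed 4 and 4 genes in ASAH+ Etoh-Dox against ASAH+ Etoh, and 2 and 1 between the control groups. Members with a slope on the ratio numbered 0 with no count filter, an alternative chosen after seeing the data, and pairs past the threshold numbered 0 as deviations from group means. With each mouse left out, the ranges between the Dox groups were -0.25 to 0.021 for Lgr5, -0.10 to 0.0018 for Znrf3 and -0.50 to 0.21 for Rnf43. In ASAH+ Etoh-Dox against ASAH+ Etoh Rhbg was -0.14 to 0.35. Between the control groups they were -0.083 to 0.051 for Glul, -0.30 to 0.051 for Oat, -0.25 to 0.14 for Axin2, -0.29 to 0.30 for Tbx3 and -0.58 to 0.12 for Rnf43. Members with a slope numbered 0 to 2 and pairs past the threshold 0 to 9. In each case the cause was not tested. Each group held only 4 or 5 mice, and Lgr5 had as few as 121 counts in a mouse.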
